A study of Mus musculus with 12 samples.

Results

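Amino acids cross the membranes of a hepatocyte through carriers of several solute carrier (SLC) families, and 6 of these families were followed here during stimulation with TGF-β1. The members were all probe sets paired with exactly 1 gene symbol whose symbol belongs to family SLC1, SLC3, SLC7, SLC36, SLC38 or SLC43. This gave 44 probe sets of 42 genes among the 21789 probe sets with 1 symbol, with Slc38a1 and Slc38a9 represented by 2 probe sets each. Primary hepatocytes (HPC) of male C57BL/6 mice had been cultured on collagen without serum, and their RNA was measured on 12 Mouse Gene 1.0 ST arrays from Affymetrix. Untreated cells (control) make up 3 of the arrays, and cells stimulated for 20 min, for 2 h and for 4 h make up 3 each, with recombinant human TGF-β1 given at 1 ng/mL. The age of the mice and any mutation are not given in the sources used here. Untreated cells were taken at 0 h only and the medium was renewed shortly before stimulation, so that the effect of TGF-β1 and that of time in the fresh medium cannot be told apart. Values are log2 signals, and since the response of each probe differs, levels are not compared between genes.

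As background, SLC1 carriers take up glutamate or exchange small neutral amino acids, and SLC7 carriers transport cationic, large neutral or cystine substrates, most of them bound to 1 of the glycoproteins of family SLC3. SLC36 carriers move small amino acids together with protons, SLC38 carriers take up glutamine, alanine and their kin with sodium, and SLC43 holds facilitative carriers of branched-chain amino acids. In the liver they feed the urea cycle, gluconeogenesis, glutathione synthesis and protein synthesis. The label fits most but not all members, as Slc43a3 encodes a nucleobase carrier and Slc3a1 and Slc3a2 encode the partner chains, not the carriers themselves. All 10 hepatocyte markers that could be measured, among them Alb and Ttr, lay above the low signal range. This range is set by 1210 probe sets of olfactory and vomeronasal receptors, genes that the liver is not known to use, and it ends at their 95th percentile of 6.26. Of the 44 member probe sets, 31 (70.5%) lay above it by their mean over all arrays, beside 67.5% of all probe sets tested, and 13 did not.

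The arrays of replicate 1 stood apart from those of replicates 2 and 3, in members as in the whole table. Averaged over the 4 groups, 6 member probe sets (13.6%) differed by at least 0.5 on the log2 scale between replicate 1 and the mean of the others, against 10.7% of all probe sets. Slc43a1, Slc43a3 and Slc38a3 were higher in replicate 1, by 1.09, 0.97 and 0.97. Slc7a6, Slc7a11 and Slc36a4 were lower there, with differences of -1.08, -0.91 and -0.66. Following the study's methods, each comparison was made within replicates, by a limma model in which replicate number and time point were both factors. P values were adjusted over all 21789 probe sets after Benjamini-Hochberg, and a probe set was called at an adjusted p under 0.05.

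After 4 h of TGF-β1, 6 member probe sets were lower and 1 was higher than in control cells. The arginine carrier Slc7a2, the branched-chain carrier Slc43a1, the cystine and dibasic amino acid subunit Slc3a1, the glutamate carrier Slc1a2 and the glutamine carriers Slc38a2 and Slc38a3 fell, and Slc7a6 rose. The 7 calls are 15.9% of the members, where limma called 4.59% of all probe sets, and the 6 that fell are 13.6% against 3.02%. The 1 that rose is 2.27% of the members, against 1.57% of all. The other 37 member probe sets did not pass, and the median log2 change was -0.02 over the 44 members and 0.02 over all probe sets. All 7 called lay above the low signal range, where 6.54% of the probe sets tested were called. With an unadjusted p under 0.05, 13 members (29.5%) differed, beside 17% of all probe sets, and 11 of them (25%) were lower, beside 9.49%. No member reached the threshold of the study's methods, an adjusted p under 0.01 with a 2-fold change, which 21 probe sets (0.0964%) passed in the whole table. The count depends on the replicates: it was 4, 0 and 0 without replicates 1, 2 and 3, and 0 with no replicate block, where 4.52%, 0.464%, 0.147% and 0.142% of all probe sets were called.

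On the same arrays, markers of other liver cells changed as well. Among 18 Kupffer cell and macrophage markers, 8 fell at 4 h and 0 rose, where 3.02% of all probe sets fell and 1.57% rose. The log2 of the summed signals of these markers was 13.25 to 13.51 at 4 h, against 13.61 to 13.81 in control cells. This sum mainly follows Cd14 and Cd68, with log2 changes of -0.34 and -0.24 (limma, adjusted p = 0.012 and 0.267). The called markers with the largest changes were Fcer1g, Lyz2, C1qb and Tyrobp, at -0.85, -0.82, -0.74 and -0.62 (limma, adjusted p = 0.00289, 0.0141, 0.0118 and 0.00601). The markers Timd4, Cd5l and Aif1 did not lie above the low signal range. Of 10 hepatocyte markers 2, Tat and Asgr1, fell and 0 rose, with a log2 summed signal of 16.93 to 17.04 at 4 h, against 17.06 to 17.11 in control cells. Of 10 endothelial markers 2 fell, of 11 markers of stellate cells and fibroblasts 1 fell, and of 6 cholangiocyte markers limma called 0, with 1 at an unadjusted p under 0.05. This was Sox9, at a log2 change of 1.19 ± 0.34 (standard error, limma, adjusted p = 0.0751). The other cholangiocyte markers had log2 changes between -0.04 and 0.15 at 4 h, and Epcam and Cftr did not lie above the low signal range. The log2 summed signal of the cholangiocyte markers, which mainly follows Sox9, was 10.85 to 11.20 at 4 h. In control cells it was 9.81 to 10.84, so that the ranges nearly met without overlap, and at 2 h it was 9.73 to 11.44. The sums of the hepatocyte markers and of the Kupffer cell and macrophage markers did not overlap between 4 h and control either. Those of the endothelial markers reached at most 11.61 at 4 h and 11.72 in control cells and overlapped, as did those of stellate cell and fibroblast markers, with 10.45 to 11.04 at 4 h and 10.51 to 11.31 in control cells. The part of these cells in the results on the transporters was not tested. In such mixed samples, fewer cells of a type and less RNA per cell cannot be told apart.

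**Figure D1:**
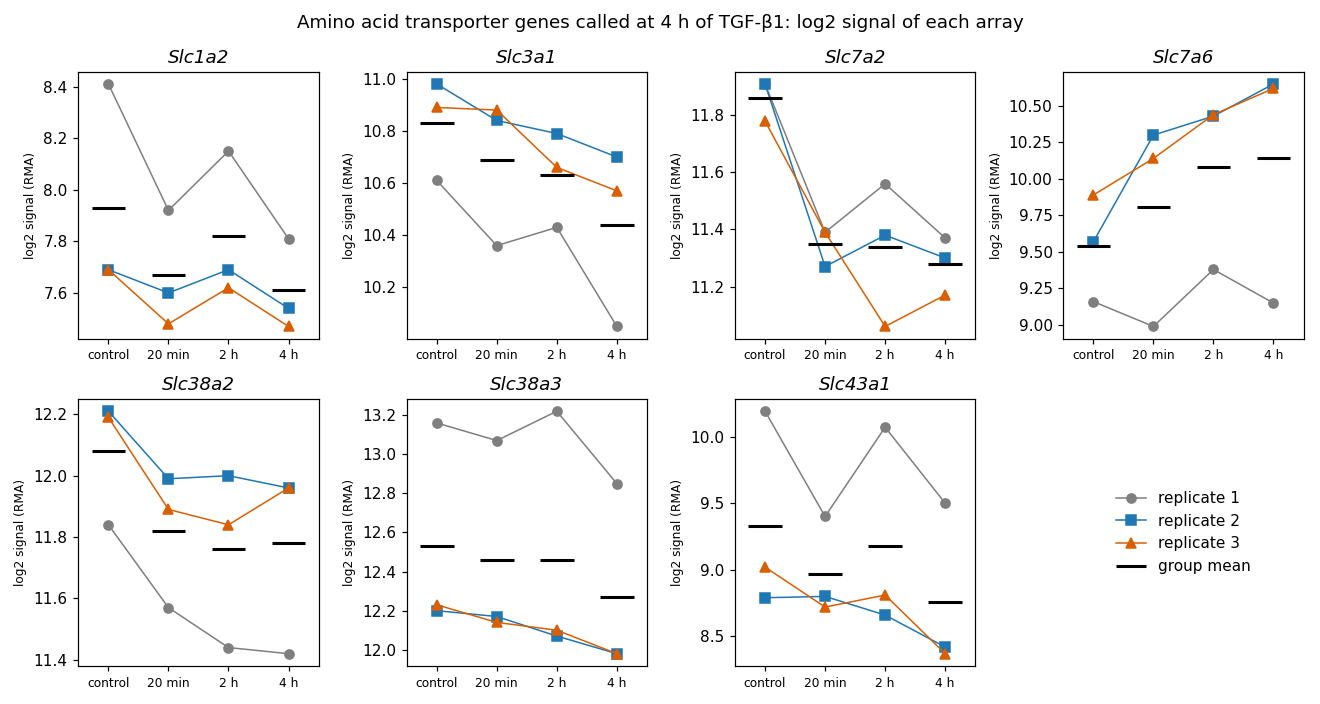
Log2 signal (y axis) of each array by time of TGF-β1 (x axis) for the 7 genes called at 4 h. Circles, squares and triangles joined by lines are replicates 1, 2 and 3, and black bars are group means; the 3 arrays of Slc7a2 at 4 h lie between 11.17 and 11.37, below the control arrays, while for the other 6 genes the arrays at 4 h and those of control cells overlap.

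Slc7a2 encodes CAT2, a carrier of arginine, lysine and ornithine whose low-affinity splice form is the main one in liver, and it had the lowest adjusted p among the members. Its log2 signal was 11.91, 11.91 and 11.78 in control cells (replicates 1, 2 and 3), 11.39, 11.27 and 11.39 at 20 min, 11.56, 11.38 and 11.06 at 2 h and 11.37, 11.30 and 11.17 at 4 h. All 9 arrays of stimulated cells lay below the 3 control arrays. At 4 h Slc7a2 fell by 33.5%, a log2 change of -0.59 ± 0.09 (standard error, n = 3 per group, limma, adjusted p = 0.00468), and it was lower in 3 of 3 replicates. Earlier, the log2 change stood at -0.52 at 20 min and -0.53 at 2 h, and neither value passed (adjusted p of 0.208 and 0.132 in limma). Between 4 h and 20 min, a comparison added after the values had been seen, the difference was -0.07 with a 95% interval of -0.26 to 0.12. Slc7a2 was also the 1 member called over the time course, by limma's moderated F test of all 3 contrasts with control (adjusted p = 0.0196), which called 1.4% of all probe sets. The probe set does not separate the splice forms of the gene. Its call at 4 h did not hold when replicate 2 or replicate 3 was left out, with adjusted p in limma of 0.0762 and 0.0668, nor with no replicate block, with 0.107, and in the test against a 1.2-fold change the adjusted p was 0.28.

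Slc7a1 (CAT1), which carries the same cationic amino acids, did not pass. It gave 8.77, 8.45 and 8.36 at 4 h, against 8.88, 8.78 and 8.89 in control cells, so that the groups did not overlap. Its log2 change was -0.32 ± 0.09 (standard error, limma, adjusted p = 0.0746). Groups without overlap at 4 h were seen in 5 members on the lower side (11.4%, against 5.58% of all probe sets) and in 1 on the higher side (2.27%, against 5.43%). Slc7a1, Slc7a2, Slc38a4, Slc38a7 and Slc38a11 were those on the lower side and Slc7a15 that on the higher, and of these Slc7a2 alone was called. Slc38a11 and Slc7a15 did not lie above the low signal range.

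Slc7a6 encodes y+LAT2, which exchanges cationic for neutral amino acids and sodium, and was the 1 member that rose. Its log2 signal was 9.16, 9.57 and 9.89 in control cells, 8.99, 10.30 and 10.14 at 20 min, 9.38, 10.43 and 10.44 at 2 h and 9.15, 10.65 and 10.62 at 4 h. The rise was carried by replicates 2 and 3, with log2 differences of 1.08 and 0.73 at 4 h, whereas replicate 1 lay at its control level. The log2 change was 0.60 ± 0.15 at 4 h (standard error, limma, adjusted p = 0.0499), and it stood at 0.54 ± 0.15 at 2 h (limma, adjusted p = 0.413). The value at 4 h lies at the edge of the threshold. Leaving out replicate 2 or 3 gave 0.36 and 0.54, with an adjusted p of 0.291 and 0.392 in limma, and leaving out replicate 1 gave 0.90 with 0.00299.

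The chain on which y+LAT2 depends at the plasma membrane, 4F2hc or CD98, is encoded by Slc3a2. Slc3a2 gave 13.23, 13.37 and 13.36 at 4 h, against 13.18, 13.21 and 13.31 in control cells, and its log2 change was 0.09 with a 95% interval of -0.04 to 0.21 (limma, adjusted p = 0.509). Other light chains that bind it did not pass either at 4 h. The large neutral amino acid carrier Slc7a5 (LAT1) stood at 0.14 ± 0.07 (standard error, limma, adjusted p = 0.379), and at 0.21 at 2 h (0.592), above 0 in 3 of 3 replicates. The cystine-glutamate exchanger Slc7a11 (xCT) stood at 0.18 ± 0.12 (limma, adjusted p = 0.529) with replicate differences of 0.71, -0.03 and -0.15. Slc7a7 (y+LAT1) stood at -0.15, Slc7a10 at 0.13 and Slc7a8 (LAT2), which was not above the low signal range, at -0.02.

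Slc3a1 encodes rBAT, the second partner chain, which in kidney and gut forms the cystine and dibasic amino acid carrier. Its log2 signal was 10.61, 10.98 and 10.89 in control cells, 10.36, 10.84 and 10.88 at 20 min, 10.43, 10.79 and 10.66 at 2 h and 10.05, 10.70 and 10.57 at 4 h. Replicate 1 was the lowest in each group, and in every replicate the array at 4 h was the lowest of its 4. At 4 h Slc3a1 fell by 23.4%, with a log2 change of -0.38 ± 0.07 (standard error, limma, adjusted p = 0.0151). The change stood at -0.13 at 20 min and at -0.20 at 2 h, and neither passed. The light chains known to bind rBAT, Slc7a9 and Slc7a13, had control means of 5.97 ± 0.08 and 5.12 ± 0.06 (SD, n = 3), and neither lay above the low signal range. Their log2 changes at 4 h were -0.09 and 0.02. The call of Slc3a1 was lost without any 1 of replicates 1, 2 and 3 (limma, adjusted p = 0.0545, 0.102 and 0.153).

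The system N and system A carriers of family SLC38 move glutamine, histidine, asparagine and alanine, substrates that hepatocytes take up in quantity. Slc38a2 (SNAT2), which in many cells is induced when amino acids are scarce, had a log2 signal of 11.84, 12.21 and 12.19 in control cells, 11.57, 11.99 and 11.89 at 20 min, 11.44, 12.00 and 11.84 at 2 h and 11.42, 11.96 and 11.96 at 4 h. Within each replicate all stimulated arrays lay below the control array. Slc38a2 fell by 19% at 4 h, with a log2 change of -0.30 ± 0.06 (standard error, limma, adjusted p = 0.0215). Earlier values of -0.27 (20 min) and -0.33 (2 h) did not pass, with an adjusted p of 0.286 and 0.155 in limma.

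Slc38a3 (SNAT3), the system N carrier that hepatocytes use for glutamine in both directions, gave 13.16, 12.20 and 12.23 in control cells, 13.07, 12.17 and 12.14 at 20 min, 13.22, 12.07 and 12.10 at 2 h and 12.85, 11.98 and 11.98 at 4 h. Replicate 1 was about as far above the others in every group, and the array at 4 h was the lowest in each replicate. Its log2 change was -0.26 ± 0.07 at 4 h (standard error, limma, adjusted p = 0.0483), against -0.07 at both 20 min and 2 h. The difference between 4 h and 2 h, -0.19 ± 0.07, did not pass (limma, adjusted p = 0.364). The calls of Slc38a2 and Slc38a3 were each lost without any 1 of the 3 replicates, with adjusted p in limma of 0.101, 0.133 and 0.185 for Slc38a2 and 0.0871, 0.197 and 0.319 for Slc38a3.

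Slc38a4 (SNAT4), a system A carrier typical of liver, gave 12.86, 12.98 and 12.85 at 4 h, against 13.06, 13.07 and 12.99 in control cells, with no overlap. The change of -0.14 ± 0.06 did not pass (limma, adjusted p = 0.266), and the values at 20 min and 2 h were -0.15 and -0.21. Slc38a7, a glutamine carrier of lysosomes, gave 9.22, 9.40 and 9.32 at 4 h, against 9.50, 9.53 and 9.51 in control cells (log2 change -0.20 ± 0.06, limma, adjusted p = 0.0858), and it stood at -0.18 at 20 min and at 2 h. Slc38a9, which senses lysosomal arginine for mTORC1, stood at -0.03 and -0.07 at its 2 probe sets at 4 h. The 2 probe sets of Slc38a1 (SNAT1) gave -0.02 and -0.16, and Slc38a10 gave -0.12. Slc38a5, Slc38a6, Slc38a8 and Slc38a11 lay between -0.05 and 0.06.

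In family SLC43, Slc43a1 (LAT3), a facilitative carrier of leucine and other branched-chain amino acids, had a log2 signal of 10.19, 8.79 and 9.02 in control cells, 9.40, 8.80 and 8.72 at 20 min, 10.07, 8.66 and 8.81 at 2 h and 9.50, 8.42 and 8.37 at 4 h. The array at 4 h was the lowest of its replicate in replicates 2 and 3, and in replicate 1 the array at 20 min was lower still. Slc43a1 fell by 32.8% at 4 h, a log2 change of -0.57 ± 0.13 (standard error, limma, adjusted p = 0.027). Between 2 h and 4 h the log2 difference was -0.42 ± 0.13 (4 h minus 2 h, limma, adjusted p = 0.263), lower in 3 of 3 replicates. When replicate 2 or 3 was left out the call did not hold (adjusted p of 0.0712 and 0.287 in limma), and when replicate 1 was left out it did (0.0138). Slc43a2 (LAT4) and Slc43a3 both stood at -0.18 (limma, adjusted p = 0.217 and 0.138), each lower in 3 of 3 replicates.

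Of the glutamate and neutral amino acid carriers of family SLC1, Slc1a2 (GLT-1), which in rodent liver marks the hepatocytes around the central vein, was called. Its log2 signal was 8.41, 7.69 and 7.69 in control cells, 7.92, 7.60 and 7.48 at 20 min, 8.15, 7.69 and 7.62 at 2 h and 7.81, 7.54 and 7.47 at 4 h. Replicate 1 started highest and had the largest difference. The log2 change at 4 h was -0.32 ± 0.08 (standard error, limma, adjusted p = 0.0496), with replicate differences of -0.59, -0.15 and -0.22. Without replicate 1 it was -0.18 (limma, adjusted p = 0.205). The neutral exchangers Slc1a4 (ASCT1) and Slc1a5 (ASCT2) stood at -0.16 and 0.02, and the glutamate carriers Slc1a1, Slc1a3, Slc1a6 and Slc1a7 between -0.01 and 0.12.

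**Figure D2:**
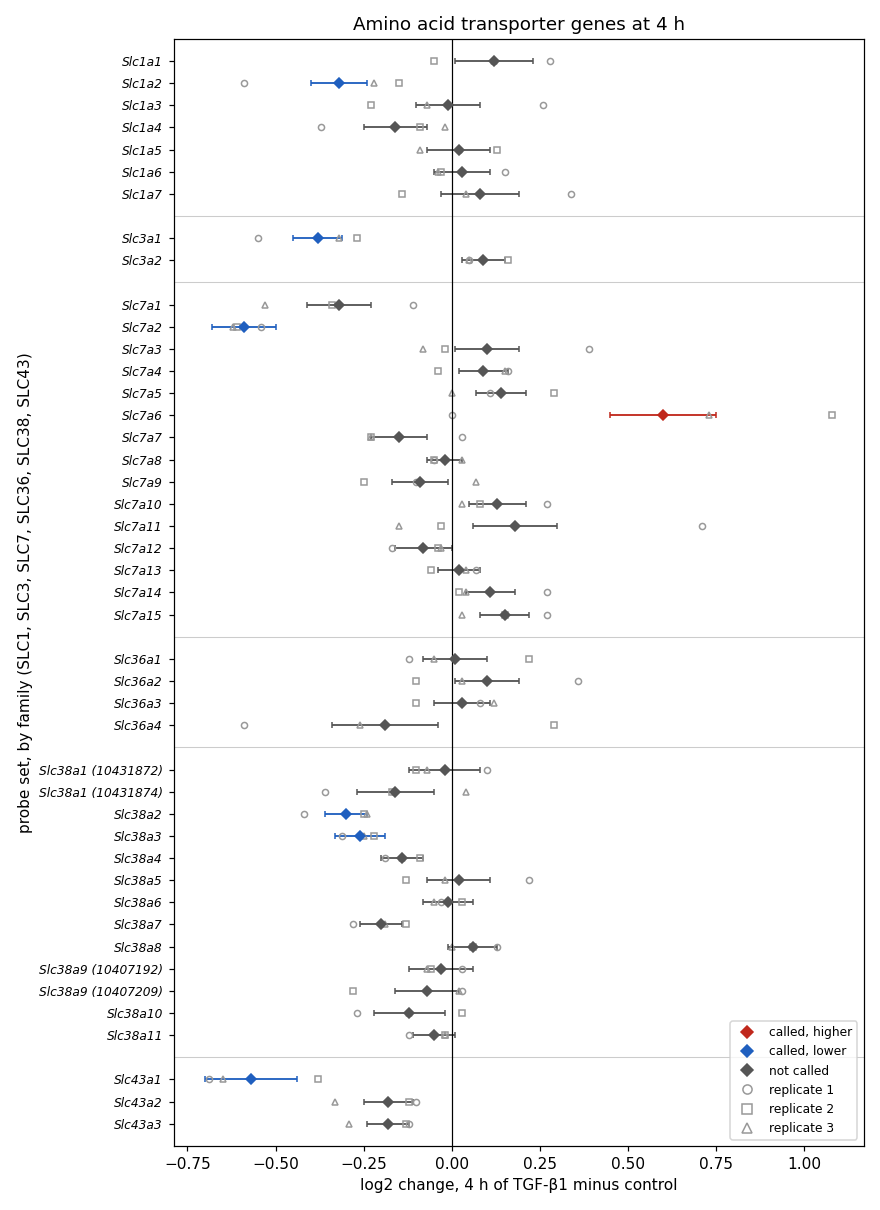
Log2 change at 4 h against control (x axis) of the 44 member probe sets (y axis), in the order of families SLC1, SLC3, SLC7, SLC36, SLC38 and SLC43. Diamonds with bars are limma estimates and standard errors, red for higher, blue for lower and grey for not called, and open circles, squares and triangles are replicates 1, 2 and 3; Slc7a2 and Slc43a1 lie farthest to the left at -0.59 and -0.57, and Slc7a6 farthest to the right at 0.60.

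Compared by family, calls at 4 h were spread over 5 of the 6 families. Of 15 SLC7 probe sets 1 fell and 1 rose, of 13 SLC38 probe sets 2 fell, and of the 7 of SLC1, the 2 of SLC3 and the 3 of SLC43 1 each fell. None of the 4 of SLC36 was called in limma at 4 h, nor had any an unadjusted p under 0.05. The proton-coupled carrier Slc36a1 of lysosomes stood at 0.01 and Slc36a4 at -0.19 ± 0.15, and Slc36a2 and Slc36a3, which did not lie above the low signal range, at 0.10 and 0.03. The median log2 change at 4 h was -0.18 in SLC43, -0.15 in SLC3, -0.07 in SLC38, 0.02 in SLC1 and SLC36 and 0.09 in SLC7, beside 0.02 over all probe sets. In SLC38, 11 of 13 estimates lay below 0 at 4 h, as did 3 of 3 in SLC43, where 25 of 44 members and 43% of all probe sets did. The 13 probe sets of SLC38 belong to 11 genes. Among those below 0, Slc38a11 (-0.05) and the Slc38a1 probe set at -0.02 did not lie above the low signal range. The differences between families were not tested. The remaining SLC7 members Slc7a3, Slc7a4, Slc7a12, Slc7a14 and Slc7a15 lay between -0.08 and 0.15, and of these only Slc7a4 was above the low signal range. Slc7a15 gave 6.01, 5.82 and 5.79 at 4 h, against 5.74, 5.67 and 5.76 in control cells (limma, adjusted p = 0.289).

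**Figure D3:**
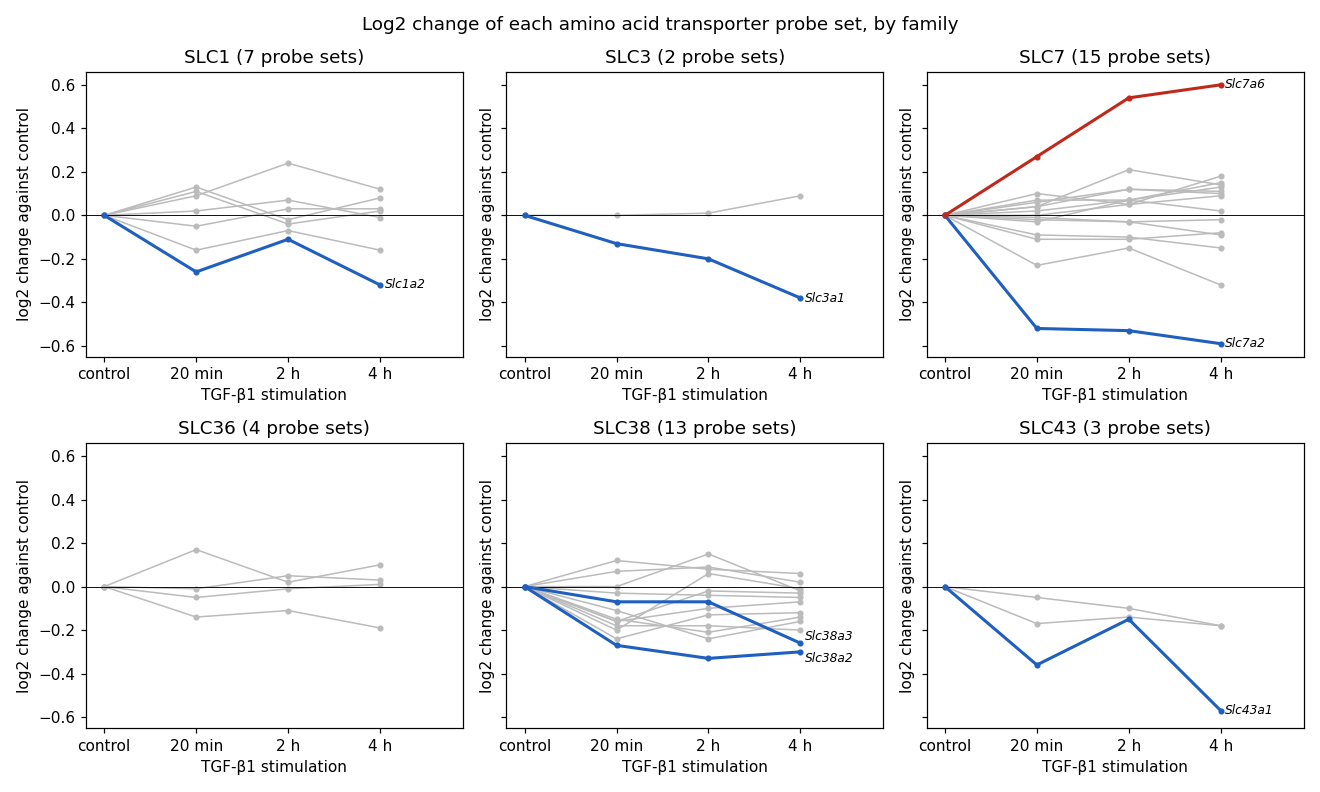
Log2 change against control (y axis) by duration of stimulation (x axis), with 1 panel per family and 1 line per probe set (limma estimates, control set to 0). Blue and red lines are genes called lower and higher at 4 h and grey lines the others; Slc7a2 is at -0.52, -0.53 and -0.59, and Slc43a1 at -0.36, -0.15 and -0.57.

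At 20 min and at 2 h limma called 0 members, and 0% of all probe sets at either time. With an unadjusted p under 0.05, 10 members (22.7%) differed at 20 min and all were lower, where 8.46% of all probe sets differed and 5.87% were lower. At 2 h 9 members (20.5%) differed and 7 (15.9%) were lower by this measure, beside 6.28% and 3.96% of all probe sets. Estimates below 0 were seen in 29 members at 20 min and 25 at 2 h (65.9% and 56.8%), beside 49.4% and 46.5% of all probe sets. Groups did not overlap on the lower side for 6 members at 20 min (13.6%, beside 4.91%) and 5 at 2 h (11.4%, beside 2.55%), and on the higher side for 1 at each time (2.27%, beside 4.58% and 3.02%). These comparisons share the control arrays with that at 4 h. At 20 min, Slc38a10 stood at -0.24 ± 0.10 (limma, adjusted p = 0.537) and Slc38a6 at -0.20 ± 0.07 (0.448). Slc38a6 gave 7.48, 7.64 and 7.70 at 20 min, against 7.76, 7.77 and 7.89 in control cells, with no overlap, and its change stood at 0.06 at 2 h and -0.01 at 4 h. The median over members was -0.04 at 20 min and -0.03 at 2 h, beside 0.00 and 0.01 over all probe sets. Between 4 h and 2 h limma called 0 members and 0.078% of all probe sets, and 4 members (9.09%) had an unadjusted p under 0.05, beside 8.83% of all probe sets. Between 4 h and 20 min it called 0 members and 0.62% of all probe sets, and 4 members (9.09%) had an unadjusted p under 0.05, beside 9.78%.

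Members within 500 kb of each other form 5 groups in the genome (gene positions of GRCm38.p6 from RefSeq), of which 2 held a called gene. Slc38a1 (96571418 to 96643438), Slc38a2 (96687392 to 96699728) and Slc38a4 (96994816 to 97055956) follow each other on chromosome 15, and Slc43a1 (84838855 to 84863586) and Slc43a3 (84936545 to 84958509) on chromosome 2. In both of these groups 1 gene was called. No gene was called at 4 h in the other groups, which are Slc36a1, Slc36a2 and Slc36a3 on chromosome 11, Slc7a7 and Slc7a8 on chromosome 14 and Slc7a9 and Slc7a10 on chromosome 7. Whether calls go with the position of a gene was not tested. Slc1a2 lies on chromosome 2 from 102658239 to 102790784, Slc38a3 on chromosome 9 from 107651154 to 107668968 and Slc3a1 on chromosome 17 from 85028347 to 85064241. Slc7a2 lies on chromosome 8 from 40862341 to 40922070 and Slc7a6 on the same chromosome from 106168219 to 106198714.

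Promoter sequences of RefSeq on GRCm38.p6, from 250 bases before to 50 after a start, matched 31 of the 42 genes with 42 windows. They were searched on both strands for the SMAD box CAGAC, the ATF4 element TGATGNAA, the AP-1 site TGANTCA and the E-box CACGTG. The SMAD box was in 24 of the 42 windows and in 49.6% of 32851 windows of all genes, and the ATF4 element in 4 of 42 and in 3.97%. Windows were counted, not genes, and overlapping windows of a gene can hold the same site. This is so for SMAD boxes of Slc7a7 and Slc7a9. The 4 windows with the ATF4 element are of Slc1a4, Slc7a11 and, with a shared site in 2 overlapping windows, Slc7a7. The AP-1 site was in 4 of 42 and in 7.81%, and the E-box in 7 of 42 and in 7.15%. The called genes have 6 windows, of Slc1a2, Slc3a1, Slc38a2 and Slc43a1 and 2 overlapping ones of Slc7a6, while Slc7a2 and Slc38a3 were not matched. Of these 6 windows, 1 held the SMAD box, 1 the AP-1 site, 1 the E-box and 0 the ATF4 element. A match describes these letters only. The 2 windows of called genes with a match are shown first, Slc3a1 at chr17:85028097-85028396 (plus strand) with its AP-1 site in capitals and Slc43a1 at chr2:84840073-84840372 (plus strand) with the SMAD box, read on the other strand, and then the E-box. The window of Slc7a11 at chr3:50443564-50443863 (minus strand) is shown for its ATF4 elements, 1 on each strand, as a member that was not called.
Slc3a1: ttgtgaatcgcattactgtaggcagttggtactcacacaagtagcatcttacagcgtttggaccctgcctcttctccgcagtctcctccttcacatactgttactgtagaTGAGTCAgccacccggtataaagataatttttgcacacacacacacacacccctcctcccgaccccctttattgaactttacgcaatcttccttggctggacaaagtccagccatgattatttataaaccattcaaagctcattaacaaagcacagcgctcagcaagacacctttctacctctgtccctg
Slc43a1: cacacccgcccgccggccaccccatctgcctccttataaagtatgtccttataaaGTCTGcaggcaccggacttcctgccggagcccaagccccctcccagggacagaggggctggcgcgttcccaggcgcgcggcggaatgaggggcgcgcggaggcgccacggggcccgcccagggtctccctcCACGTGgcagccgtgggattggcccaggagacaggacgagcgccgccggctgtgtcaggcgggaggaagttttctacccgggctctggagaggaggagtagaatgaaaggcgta
Slc7a11: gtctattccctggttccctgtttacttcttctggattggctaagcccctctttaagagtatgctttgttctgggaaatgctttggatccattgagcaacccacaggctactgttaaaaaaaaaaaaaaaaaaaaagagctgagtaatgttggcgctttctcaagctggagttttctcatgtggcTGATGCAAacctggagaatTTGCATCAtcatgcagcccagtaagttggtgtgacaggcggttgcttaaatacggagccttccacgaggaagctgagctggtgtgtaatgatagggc

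Genes outside these families that handle amino acids were looked at in the same way. Of 26 further amino acid transporters 3 fell and 1 rose at 4 h, with a median log2 change of -0.02. Of all probe sets tested, 3.02% fell and 1.57% rose. The glycine carrier Slc6a9 fell by 0.42 on the log2 scale (limma, adjusted p = 0.00391), the betaine carrier Slc6a12 by 0.36 (0.02) and the aromatic amino acid carrier Slc16a10 by 0.31 (0.0463), and the creatine carrier Slc6a8 rose by 0.28 (0.0452). Of 25 ATF4 and amino acid response genes, which cells turn on when amino acids run short, 2 fell and 0 rose, with a median of -0.07. These were the stress factors Ddit3 and Atf3, with log2 changes of -0.94 ± 0.14 and -0.85 ± 0.14 (standard error, limma, adjusted p = 0.00525 and 0.00648). Of 28 genes of lysosomal amino acid sensing by mTORC1, limma called 0 at 4 h, and their median was -0.05. Of these, 7 had an unadjusted p under 0.05, as had 17% of all probe sets. The calls in these lists were not followed through other processing. With no replicate block, limma called 0.142% of all probe sets at 4 h.

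**Figure D4:**
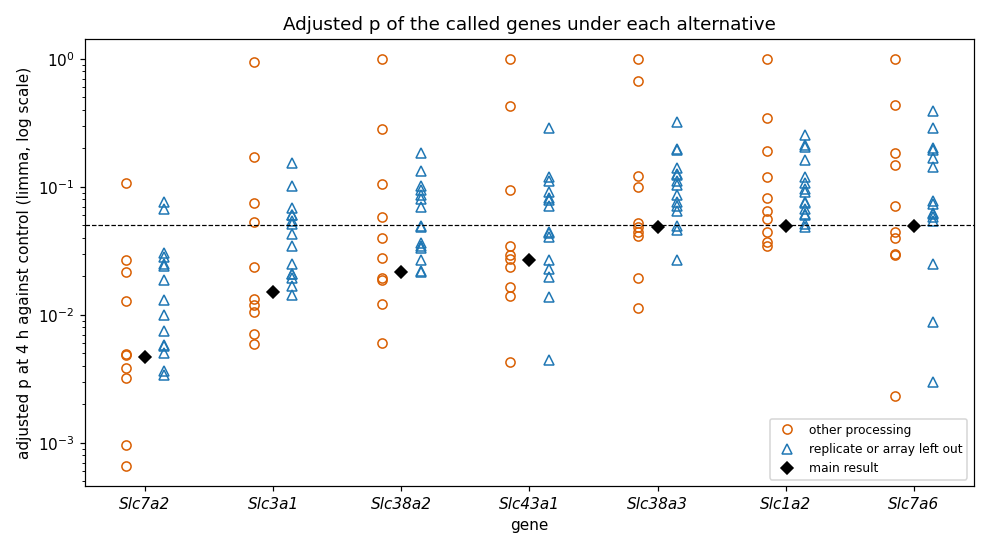
Adjusted p (limma, y axis, log scale) of the change at 4 h against control for each of the 7 called genes (x axis). Black diamonds are the values given above, orange circles other processing and blue triangles results with a replicate or an array left out, and the dashed line is 0.05; other thresholds and the test against a 1.2-fold change are not drawn. The values drawn for Slc7a2 lie below the line except those with no replicate block and without replicate 2 or 3, and those given above for Slc38a3, Slc1a2 and Slc7a6 are 0.0483, 0.0496 and 0.0499.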

How the data were processed

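RNA of primary mouse HPC was hybridized to 12 Affymetrix Mouse Gene 1.0 ST arrays. The deposited values are log2 signals for which the authors' processing notes name RMA and Affymetrix Power Tools, without versions. RMA corrects for background, brings the arrays to a common distribution and gives 1 value per probe set. The paper names FARMS and ComBat for its own analysis, and the processing notes of the deposited values name neither. For the mouse HPC arrays the paper reports a strong batch effect, which it used ComBat to lessen. It does not say which arrays formed the batches. No values were missing, they ranged from 3.84 to 15.2, array medians lay between 6.82 and 6.93, and 0 pairs of arrays were identical. The 3 arrays per group limit the precision.

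Of 35556 probe sets, 21789 had exactly 1 symbol in the annotation of the platform and were tested, 1621 had several and 12146 had none. Levels are RMA signals per probe set and are not scaled between genes. Linear models were fitted in R 4.3.3 with limma 3.58.1, with factors for replicate number and for time point, 6 residual and 5.39 prior degrees of freedom, and the moderated F test stood in for betr. Errors after log2 changes are standard errors of this fit, and intervals are at 95%.

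The replicate numbers come from the sample titles and the paper speaks of biological replicates, without saying which cells came from which animals. The replicate factor follows the study's methods. Deviations from the group means correlated between arrays of the same number (r from 0.555 to 0.881 in 18 pairs of arrays). Arrays of replicates 2 and 3 correlated about as closely with each other (0.539 to 0.722) as within replicate 2 (0.555 to 0.794) or 3 (0.644 to 0.707), and replicate 1 with neither (-0.812 to -0.656), so that these values set replicate 1 apart and do not show that arrays of replicates 2 and 3 are pairs.

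Every member is named, and values of all arrays are given for members called in any test or with a log2 change of at least 0.4 at any time. Of other gene lists, up to 4 called genes are named. Other members with array values, and marker genes named, were chosen after their values had been seen. The members, the gene lists and the tests were chosen with earlier results of these data known. The comparison of 4 h with 20 min and the motifs were chosen after the data had been seen, and the distance of 500 kb after the gene positions had been seen. Genes with several probe sets were entered in the lists by the one with the highest mean. Of the listed genes, those without a probe set of 1 symbol were left out. Alternatives were other treatments of the replicate factor, other sets of probe sets, normalizations, variance priors, thresholds and leaving out replicates or arrays.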

Additional observations from a re-analysis of the deposited data

How the results depend on the processing

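At 4 h the count of 7 called members stayed within 1.5 times in 8 of 28 alternatives. It was 0 with no replicate block, 1 with the block as a random effect and 1 with all probe sets tested. It was 2 with the compared groups alone, 4 after centring on the array median and 11 with array weights. Of all probe sets, these settings called 0.142%, 1.03%, 1.04%, 1.62%, 3.82% and 8.26% in this order, beside 4.59% in the main result. The count of members was 0 at the study's threshold and 0 when tested against a 1.2-fold change, beside 0.0964% and 0.156% of all probe sets. Leaving out a replicate or a single array gave 0 to 6 calls of members at 4 h, 0 to 1 at 2 h and 0 to 2 over the time course. It gave no call of a member at 20 min or between 4 h and 2 h. Of all probe sets, 0.147% to 5.45% were then called at 4 h, 0% to 0.197% at 2 h and 0% to 1.94% over the time course. The lowest counts of members at 4 h, 0, came without replicate 2 and without replicate 3. Without any 1 array of 4 h, or without the control array of replicate 1 or 3, 2 members were left, beside 1.66% to 2.72% of all probe sets. Without the control array of replicate 2 there were 3 (1.75% of all probe sets). Without the array of replicate 2 or 3 at 20 min or of replicate 3 at 2 h there were 4 (3.63% to 3.91%). A trended and robust prior gave 1 call at 20 min, 1 at 2 h and 3 over the time course. Of all probe sets it called 0.0184%, 0.0413% and 2.2% in these comparisons. Over the time course the 1 call became 0 with no replicate block, with all probe sets or at the study's threshold. It became 6 with array weights and 3 at an adjusted p under 0.1. In this order, 0%, 0.00281%, 0.0505%, 4.96% and 2.86% of all probe sets were called, beside 1.4% in the main result. No direction of a called gene was reversed in any alternative, but many alternatives could not change the estimate. Other priors, thresholds, treatments of the replicate factor or sets of probe sets left it as it was. So did leaving out an array of 20 min or 2 h. The call of Slc7a2 held in 23 of 28 alternatives, that of Slc43a1 in 16, those of Slc3a1 and Slc38a2 in 15 each, those of Slc38a3 and Slc7a6 in 9 each and that of Slc1a2 in 5. These counts include the threshold of an adjusted p under 0.1, at which no call could be lost. Without the replicate block all 7 were lost (limma, adjusted p from 0.107 to 0.996). A replicate block of 2 levels, replicate 1 against replicates 2 and 3, was chosen after seeing the data. With it the same 7 were called at 4 h (limma, adjusted p from 0.00368 to 0.0396), and 2 over the time course. Of all probe sets, 5.09% and 1.94% were then called. The cause of these differences was not tested.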

Other observations

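Between 4 h and 20 min, a comparison chosen after the data had been seen, 0 members were called in limma (0.62% of all probe sets were), and 4 had an unadjusted p under 0.05, chosen here by that p. These were Slc3a1 with a log2 difference of -0.25 and Slc38a3 with -0.19, and, on the other side, Slc38a6 with 0.19 and Slc7a15 with 0.19. For Slc38a6 the arrays gave 7.73, 7.81 and 7.85 at 4 h, against 7.48, 7.64 and 7.70 at 20 min, with no overlap.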
